A study of Mus musculus with 2 samples.

Results

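Malat1, Neat1, Meg3, Rian, Mirg and H19 are genes of long noncoding RNAs, transcripts that are not translated and many of which, though not all, stay in the nucleus. They were taken by symbol from the gene list of single-nucleus RNA sequencing (snRNA-Seq) of mouse gastrocnemius-plantaris (GP) muscle, the calf muscles of the hindlimb. Of the 6 genes named, 5 had a row among the 27998 genes, and Rian was not analysed here. The question was how much of the RNA of a nucleus these genes make up, in which fiber classes and in which nuclei outside the fibers, and how the share differs after the loss of Net39, a nuclear envelope protein of muscle encoded by Plpp7.

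The Ctrl mice were Net39 fl/fl and Cre-, and the cKO mice were HSACreERT2;Net39 fl/fl. Both were on the B6C3F1 background, both carried loxP sites around the first exon of Net39, and both were 5 months old and 3 months past tamoxifen. The human skeletal actin (HSA) promoter drives the inducible Cre in muscle fibers, so nuclei of other cells in the muscle were not targets of the deletion. In each group 3 muscles were pooled into 1 library, while the sample titles name a single mouse, so the number of animals is not certain. There was thus no replicate, no test and no spread between animals. All intervals given are 95% counting intervals, which cover the counting of molecules only.

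Malat1 RNA sits in nuclear speckles, bodies rich in splicing factors. Neat1 RNA is the scaffold of paraspeckles, bodies that hold back RNA-binding proteins and edited RNA. Meg3, Rian and Mirg lie in a row in the imprinted Dlk1-Dio3 domain and are transcribed from the maternal chromosome, and H19 is the maternally transcribed partner of the growth factor gene Igf2. Meg3 is known from mesenchymal and satellite cells of muscle, and H19 from fetal and regenerating muscle.

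On GRCm38, Malat1 (ENSMUSG00000092341) occupies chr19:5795690-5802672 on the minus strand, as 1 exon of 6983 bases. Neat1 (ENSMUSG00000092274) occupies chr19:5824708-5845478 on the same strand, and 22.035 kb lie between the genes. The long Neat1 transcript has 20771 bases, and the short one of 3004 bases ends at a polyadenylation signal inside it. The long transcripts of both genes have no ordinary poly(A) tail at their processed end. They close in a triple helix, in which U-rich stretches clamp a genome-encoded A-rich tract, and an RNA that resembles a tRNA is cut off behind it. These ends are shown because the assay primes with oligo(dT), which binds runs of A, and the A-rich tract of Malat1 is such a run. In the sequences here, read 5′ to 3′ on the transcript strand, capitals mark the U-rich stretches and the A-rich tract.
Malat1, bases 6601 to 6691, chr19:5795982-5796072: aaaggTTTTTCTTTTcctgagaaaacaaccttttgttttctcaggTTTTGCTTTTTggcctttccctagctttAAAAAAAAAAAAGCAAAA
Neat1, bases 20677 to 20771, chr19:5824708-5824802: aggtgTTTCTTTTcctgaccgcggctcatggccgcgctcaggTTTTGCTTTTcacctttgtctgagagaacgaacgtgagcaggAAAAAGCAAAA
Malat1, bases 6692 to 6752, behind the tract, chr19:5795921-5795981: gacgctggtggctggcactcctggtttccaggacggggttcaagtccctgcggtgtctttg
The longest run of A was 12 bases in Malat1, 7 in the long Neat1 transcript and 16 in the longest Meg3 transcript. Runs of 6 or more A numbered 5 in Malat1, 7 in Neat1, 16 in the longest Meg3 transcript, and 0 in Mirg and H19.

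The other members end at a polyadenylation signal, set in capitals in the last 40 bases of the short Neat1 transcript and of the longest Meg3, Mirg and H19 transcripts.
Neat1, short, chr19:5842307-5842346, minus strand: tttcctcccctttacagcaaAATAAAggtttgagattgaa
Meg3, chr12:109571687-109571726, plus strand: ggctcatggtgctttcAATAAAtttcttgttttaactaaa
Mirg, chr12:109749419-109749458, plus strand: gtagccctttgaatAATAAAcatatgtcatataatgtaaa
H19, chr7:142575529-142575568, minus strand: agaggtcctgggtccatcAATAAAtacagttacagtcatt
Meg3 (ENSMUSG00000021268) spans chr12:109541001-109571726 and Mirg (ENSMUSG00000097391) chr12:109729764-109749460, with the 57777 bases of Rian between them. H19 (ENSMUSG00000000031) spans chr7:142575529-142578143. Gm26906 is annotated antisense to the end of Meg3 and held 2 unique molecular identifiers (UMIs, 1 per captured RNA molecule) in Ctrl and 0 in cKO, and whether the counting used strand is not stated in the sources used here.

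The Ctrl library held 10410316 UMIs in 3863 barcodes and the cKO library 8446070 in 3994, with medians of 2106 and 1662.5 UMIs per barcode. After filters, 3526 Ctrl and 3595 cKO nuclei were used, and 4 of the barcodes used occurred in both libraries. Clusters were made without the members. Of the 14 clusters, 8 were fiber clusters with 2919 Ctrl and 3253 cKO myonuclei, 5 held 520 Ctrl and 255 cKO nuclei from outside the fibers, and 1 was led by mitochondrial genes and is kept apart. The fiber genes Ttn and Dmd followed Malat1 in the order of genes by UMIs in both libraries. The floxed exon of Plpp7 is the first and the assay reads 3′ tags, so the UMIs of Plpp7 are no direct check of the deletion. They gave 52.0 CPM in Ctrl myonuclei (47.1 to 57.4) and 41.5 in cKO (36.8 to 46.7). CPM is the share of a gene in the UMIs of a class on a finer scale than percent, such that 0.502% is 5016 CPM.

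Of the 5 genes, Malat1 and Neat1 were abundant and the other 3 were not. Malat1 was the gene with most UMIs in every class of nuclei and both libraries, with 25.5% of all UMIs in Ctrl and 30.7% in cKO. It had a UMI in each nucleus used, and its share of a nucleus ran from 2.67% to 60.2% in Ctrl, with a median of 24.9%, and from 3.02% to 71.2% in cKO, with a median of 28.7%. Neat1 ranked 7th in both libraries, with 0.482% of UMIs in Ctrl and 0.392% in cKO. Meg3 ranked 1005th in Ctrl and 1987th in cKO, with 1272 and 499 UMIs. Mirg had 34 and 11 UMIs, and H19 had 33 and 65. Set against exonic length, the level of Malat1 was 36562 CPM per kb in Ctrl, that of Neat1 232, Meg3 7.84, H19 1.50 and Mirg 0.52. The same levels in cKO were 44014 for Malat1, 189 for Neat1, 3.81 for Meg3, 3.65 for H19 and 0.208 for Mirg. The order per kb was the same in both libraries, but the intervals of Meg3 (3.48 to 4.16) and H19 (2.81 to 4.65) overlapped in cKO. The assay reads 3′ tags, so UMIs need not scale with exonic length, and no order of the genes is read from these values. In UMIs, Meg3 and H19 lay far apart in cKO (499 and 65), and Mirg and H19 were nearly equal in Ctrl (34 and 33).

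Malat1 made up 26.6% of the UMIs of Ctrl myonuclei and 31.4% of those of cKO myonuclei. On the log2 scale of CPM, cKO was 0.24 above Ctrl, against a median of -0.08 over all 11407 genes with 20 or more UMIs. Of these genes 77.5% had a lower ratio than Malat1, so its place was on the higher side but not at the edge. Among all genes tested, 9.58% were higher and 13.1% lower in cKO by 1.5-fold or more. Of the 4 members tested, 2 were higher (Meg3 and H19) and 0 were lower, and Malat1 and Neat1 lay within 1.5-fold. Both calls ended with the clusters weighted as in Ctrl, where Meg3 was at -0.21 and H19 at 0.55, and Meg3 was also below 0 without cluster 1 (-0.78) and without its richest nuclei (-0.47). Mirg had too few UMIs in myonuclei to be tested.

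The share of Malat1 was read in fiber classes, which were set by the adult myosin heavy chain gene with at least 60% of the myosin UMIs of a nucleus. In Ctrl the share was 22.5% in nuclei dominated by Myh7, the slow myosin, 25.2% with Myh2, 27.4% with Myh1 and 26.4% with Myh4, the fastest myosin. In cKO it was 33.3% with Myh7, 33.7% with Myh2, 32.9% with Myh1 and 28.6% with Myh4. The Myh7 class held 19 nuclei in Ctrl and 275 in cKO, so its Ctrl value rested on few nuclei. The log2 ratio of Myh7-dominant over Myh4-dominant nuclei was -0.23 in Ctrl and 0.22 in cKO. The log2 ratio of cKO over Ctrl was 0.56 in the Myh7 class (0.53 to 0.59), 0.42 in Myh2, 0.27 in Myh1 and 0.11 in Myh4. All classes, mixed and undetermined nuclei included, had a higher share in cKO, and the Myh4 class had the smallest difference.

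The clusters divided the same myonuclei in another way. Cluster 1 was led by Mhrt, Myh7 and Tnnt1, genes of slow and cardiac muscle, and held 148 Ctrl and 907 cKO nuclei. Its Malat1 share was 29.2% in Ctrl and 37.2% in cKO, the highest of any cluster in each library. Cluster 0, led by Pdzd7, Pfkfb3 and Myh4, had 26.7% in Ctrl and 28.1% in cKO. Cluster 2, led by Sorcs1, had 26.2% and 26.6%, and the neuromuscular junction-like nuclei had 23.1% and 23.3%, a log2 difference of 0.01 (-0.02 to 0.04). The myotendinous junction-like nuclei had 26.9% and 29.0%. With cluster 1 left out, the ratio over myonuclei was 0.11 in place of 0.24, and with the clusters weighted as in Ctrl it was 0.13.

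**Figure D1:**
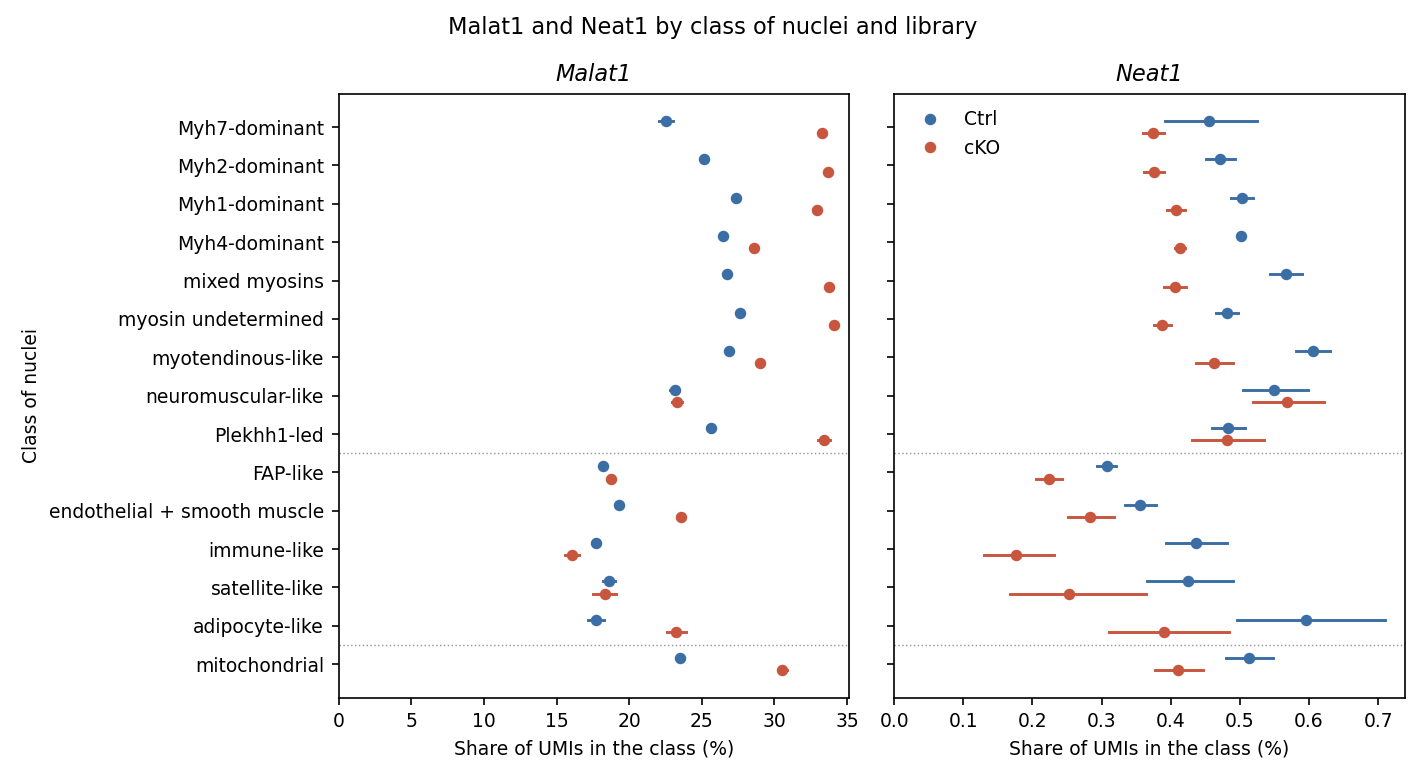
Share of the UMIs of a class (x axis, %) taken by Malat1 (left) and Neat1 (right) in 15 classes of nuclei (y axis), for Ctrl (blue) and cKO (red), with bars for the 95% counting intervals. Above the first dotted line are myonuclei, divided by myosin and, for 3 classes, by cluster, and below it are nuclei outside the fibers and the mitochondrial cluster; Malat1 in fiber classes lay between 22.5% and 34.1%, and in FAP-like nuclei at 18.2% and 18.8%.

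The cKO myonuclei differed from Ctrl in the upper tail of the Malat1 share. Of 2919 Ctrl myonuclei, 114 (3.91%) had over 40% Malat1, and of 3253 cKO myonuclei 453 (13.9%) did. Over 50% Malat1 was found in 10 Ctrl nuclei (0.343%) and 113 cKO nuclei (3.47%). In cluster 1, 22 of 148 Ctrl nuclei (14.9%) and 313 of 907 cKO nuclei (34.5%) were over 40%, whereas cluster 0 had 4.06% and 4.57%. The standard deviation of the share over myonuclei was 6.80 percentage points in Ctrl and 9.06 in cKO, and counting alone would have given 0.97 and 1.16. The spread over nuclei includes the differences between clusters and depths.

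**Figure D2:**
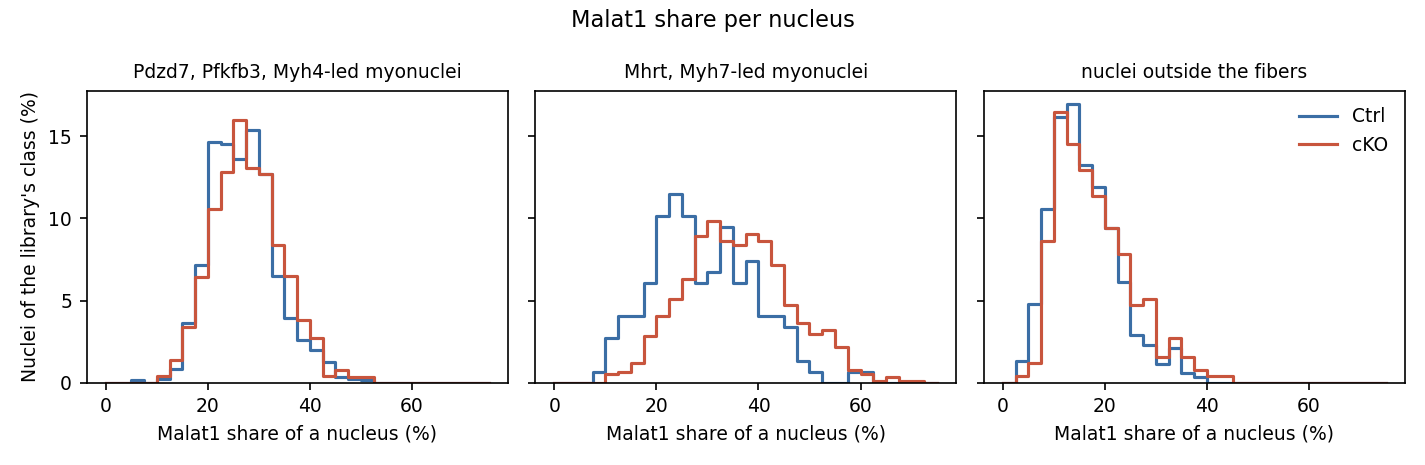
Percent of nuclei (y axis) by Malat1 share of the nucleus (x axis, %, in bins of 2.5 points) for cluster 0, cluster 1 and the nuclei outside the fibers, with Ctrl in blue and cKO in red. The curves of cluster 0 overlap for the most part, cluster 1 reaches further to the right in cKO (34.5% of nuclei over 40%, against 14.9% in Ctrl), and the nuclei outside the fibers lie to the left.

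A share can move through Malat1 or through everything else, so both were counted per nucleus. Ctrl myonuclei held 701 Malat1 UMIs on average and cKO myonuclei 647, a change of -7.8%. UMIs of all other genes went from 1938 to 1413, a change of -27.1%. In the Myh4 class the changes were -20.6% for Malat1 and -28.7% for the other genes, in the Myh2 class 15.3% and -23.9%, and in cluster 1 11.3% and -22.7%. Malat1 UMIs per nucleus were thus lower in some cKO classes and higher in others, while the other genes had fewer UMIs in all 6 myosin classes. Among the fiber clusters the exception was cluster 9, led by Plekhh1, with changes of 114.5% for Malat1 and 47.2% for the other genes on 150 Ctrl and 19 cKO nuclei. The cKO library was also the shallower one, and the loss of other RNA and a lower yield of the library cannot be told apart.

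Myonuclei were next sorted into 5 bins by the UMIs of their other genes, with limits set on both libraries together. In Ctrl, the Malat1 share went from 34.1% in the shallowest bin (375 to 905 other UMIs) through 29.3%, 26.9% and 26.8% to 25.2% in the deepest (2163 to 23201). In cKO it was 32.2%, 31.5%, 30.9%, 30.9% and 31.4%. The Ctrl share was higher in shallow nuclei and the cKO share was nearly level. The log2 ratio of cKO over Ctrl was thus -0.08 in the shallowest bin and 0.10, 0.20, 0.21 and 0.32 in the deeper ones. The shallowest bin held 158 Ctrl and 1074 cKO nuclei, and the deepest 765 and 470. The slope of log Malat1 UMIs on log other UMIs was 0.875 in Ctrl and 0.990 in cKO, where 1 would mean that the share did not depend on depth.

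The relation to depth was not the same in each cluster. In cluster 0 the ratio of cKO over Ctrl was -0.26, -0.07, 0.02, 0.08 and 0.10 from shallow to deep, and over all myonuclei without cluster 1 it was -0.21, -0.03, 0.08, 0.08 and 0.18. In cluster 1 it was 0.27, 0.19, 0.25, 0.19 and 0.49, above 0 in each bin. With equal weight on the 5 bins in both libraries the ratio over myonuclei was 0.14. Mitochondrial genes, a measure of cytoplasmic RNA, took 0.277% of the UMIs of Ctrl myonuclei and 0.363% in cKO, and their part in the Malat1 shares was not tested.

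**Figure D3:**
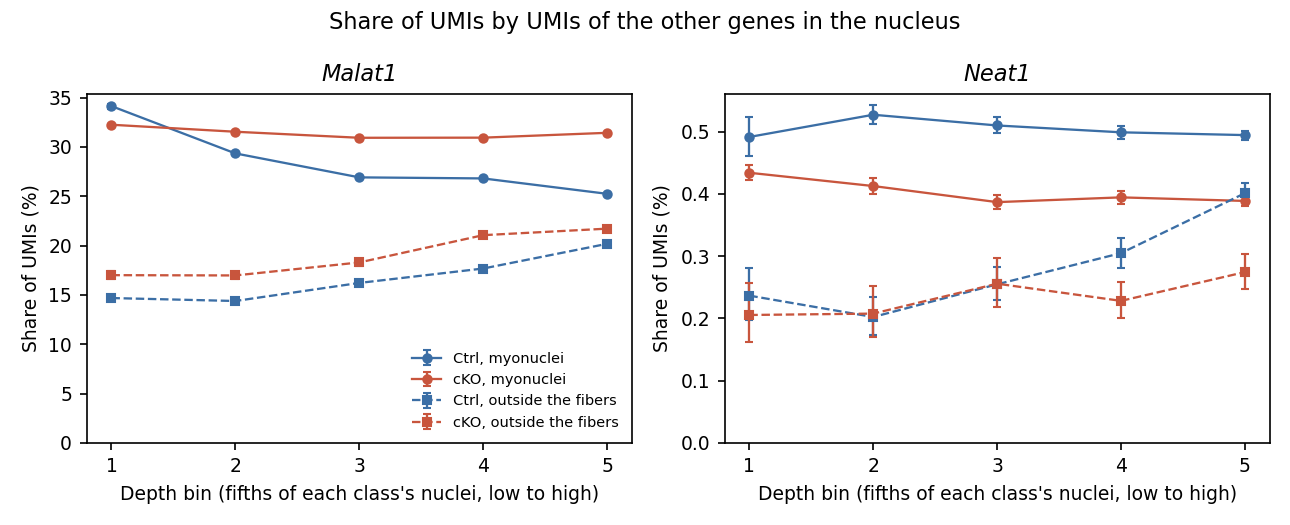
Share of UMIs (y axis, %) of Malat1 (left) and Neat1 (right) in 5 bins of the UMIs of all other genes in a nucleus (x axis, each bin holding about as many of the myonuclei, or of the nuclei outside the fibers, as the next), with 95% counting intervals. Circles and solid lines are myonuclei, squares and dashed lines nuclei outside the fibers; Malat1 in Ctrl myonuclei went from 34.1% to 25.2% with depth, in cKO myonuclei from 32.2% to 31.4%, and outside the fibers from 14.7% to 20.2% in Ctrl.

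Neat1 was lower in cKO myonuclei. It had 5016 CPM in Ctrl myonuclei (4966 to 5066) and 4005 in cKO (3957 to 4053), a log2 difference of -0.32 (-0.35 to -0.30), or -0.22 when Malat1 and mitochondrial genes were taken out of the total. The direction was the same in all myosin classes, with -0.28 in Myh7, -0.33 in Myh2, -0.30 in Myh1 and -0.28 in Myh4. It also held in all depth bins, with -0.18 in the shallowest and between -0.34 and -0.40 in the others. As shares of UMIs over all myonuclei, Malat1 and Neat1, neighbors on the chromosome, therefore lay on opposite sides of equal levels. In the shallowest bin both were below 0, with Malat1 at -0.08. In UMIs per nucleus both were lower in cKO. Malat1 had a mean of 701 in Ctrl and 647 in cKO, and Neat1 had 38646 UMIs in 2919 Ctrl and 26829 in 3253 cKO myonuclei. The size of the Neat1 difference was under 1.5-fold.

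Neat1 also varied among the fiber clusters. Its highest level in Ctrl fiber clusters was in the myotendinous junction-like nuclei, at 6057 CPM (5819 to 6303), and these had 4626 CPM in cKO (4360 to 4903). Cluster 1 had 5516 CPM in Ctrl and 3708 in cKO, a difference of -0.57. The neuromuscular junction-like nuclei had 5499 CPM in Ctrl and 5688 in cKO, and the interval of the difference, -0.13 to 0.23, included 0. Cluster 9, led by Plekhh1 and with 150 Ctrl and 19 cKO nuclei, had 4833 and 4807 CPM. In these 2 fiber clusters the interval of the difference included 0, and in the other 6 Neat1 was lower in cKO.

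**Figure D4:**
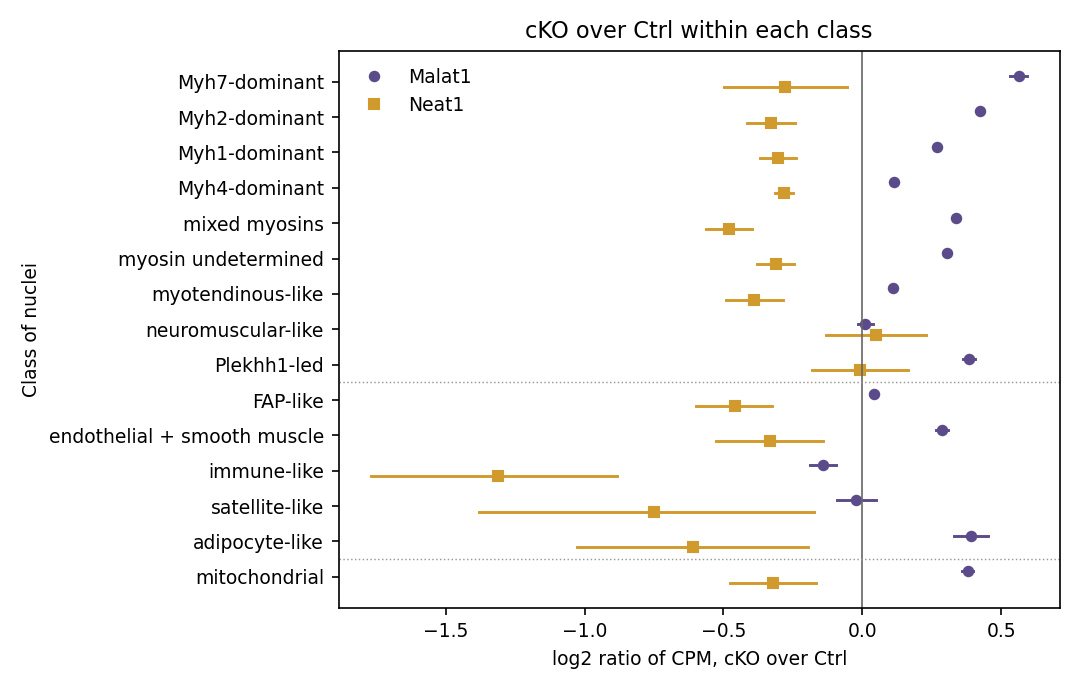
Log2 ratio of CPM in cKO over Ctrl (x axis) within 15 classes of nuclei (y axis), for Malat1 (circles) and Neat1 (squares), with 95% counting intervals. Malat1 lies at or right of 0 in the fiber classes, up to 0.56 in Myh7-dominant nuclei, and Neat1 lies left of 0 except in the neuromuscular junction-like nuclei (0.05) and the Plekhh1-led nuclei (-0.01).

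Within 1 library, nuclei with a high Malat1 share also had more Neat1 relative to the remaining UMIs. In the deepest bin of Ctrl myonuclei, Neat1 had 7118 CPM of the UMIs other than Malat1 in nuclei above the bin's median Malat1 share (6973 to 7265) and 6135 in those at or below it (6004 to 6267). The same sets had 6113 and 5187 CPM in cKO. The set above the median was higher in all 10 pairs of library and bin. The intervals of the paired sets overlapped in the shallowest Ctrl bin and in every cKO bin but the deepest. The fiber gene Ttn, counted in the same way, had 65817 CPM above and 62051 at or below the median in the deepest Ctrl bin, and 57396 and 58052 in that of cKO. Ttn was higher above the median in all 5 Ctrl bins, with 61137 against 43577 CPM in the shallowest, where Neat1 had 7776 and 7112. These are descriptions over nuclei that share a library, and no test was made.

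Genes whose proteins form the bodies around these RNAs were compared next, where 9.58% of all genes were higher and 13.1% lower. Of 15 paraspeckle protein genes tested, 0 were past 1.5-fold in cKO over Ctrl myonuclei in either direction, with a median log2 ratio of 0.04 against -0.08 over all genes. Sfpq, a core paraspeckle protein gene, was at 0.03, and Ewsr1, an RNA-binding protein gene, was at -0.04. Of 17 nuclear speckle genes, 0 were past 1.5-fold, with a median of -0.11. Son, a speckle scaffold gene, was at 0.06, Srrm2, another scaffold gene, at -0.38, and Luc7l3, a splicing factor gene, at -0.06. Of the 4 tested neighbors of Malat1 and Neat1 on chromosome 19, 1 was lower, Ltbp3 at -0.69, and Ehbp1l1 was at 0.03. Of 10 other long noncoding RNA genes, 1 was higher and 2 were lower, with a median of -0.29. Airn and Kcnq1ot1, imprinted antisense RNAs, were at -0.38 and -0.26, and Lncpint was lower at -0.61. The others past 1.5-fold, named after their values were seen, were Gm26917 (-0.68) and Rmst, which went from 35 to 125 UMIs (2.04). Of 11 mitochondrial genes, 0 were past 1.5-fold, with a median of 0.23.

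Nuclei outside the fibers had less Malat1 and less Neat1 than myonuclei. Malat1 took 18.5% of their UMIs in Ctrl and 19.98% in cKO, a log2 ratio over myonuclei of -0.53 and -0.65. Neat1 had 3402 CPM in Ctrl and 2442 in cKO, with ratios of -0.56 and -0.71. Over all genes the median ratio of outside over myonuclei was 0.39 in Ctrl and 0.44 in cKO. Of all genes tested in Ctrl, 41.8% were higher and 14.3% lower outside the fibers by 1.5-fold or more, and in cKO 43.7% and 16%. Of the 5 members tested in Ctrl, 2 were higher (Meg3 and Mirg) and 1 was lower, H19 with an interval that included equality. Of the 4 tested in cKO, 1 was higher (Meg3) and 2 were lower (Malat1 and Neat1).

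Fiber RNA was present in the nuclei outside the fibers and moved with both genes. Ttn, which encodes the giant sarcomere protein titin, took 2.09% of their UMIs in Ctrl and 1.71% in cKO, against 4.52% and 3.80% in myonuclei. When the nuclei outside the fibers were divided at their median Ttn share, the low-Ttn nuclei in Ctrl had 0.179% Ttn, 12.9% Malat1 and 1810 CPM of Neat1. The high-Ttn nuclei had 3.03% Ttn, 21.2% Malat1 and 4189 CPM of Neat1. In cKO the low-Ttn nuclei had 15.2% Malat1 and 1269 CPM of Neat1, and the high-Ttn nuclei 23.2% and 3225 CPM. With the low-Ttn nuclei alone, the log2 ratio outside over myonuclei was -1.04 in Ctrl and -1.05 in cKO for Malat1, and -1.47 and -1.66 for Neat1. Mitochondrial UMIs moved the other way, with 2.27% in low-Ttn and 1.25% in high-Ttn nuclei of Ctrl and 3.87% and 1.83% in cKO. Of the mitochondrial genes tested, 12 of 12 in Ctrl (median log2 ratio 2.63) and 11 of 11 in cKO (2.94) were higher outside the fibers. The part of fiber and mitochondrial RNA in the Malat1 and Neat1 levels of these nuclei was not tested.

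These sets also differed in depth, with a median of 1092 UMIs in low-Ttn and 2045 in high-Ttn nuclei of Ctrl. With depth, the Malat1 share was higher outside the fibers, where that of Ctrl myonuclei was lower. It was 14.7%, 14.4%, 16.2%, 17.7% and 20.2% from the shallowest to the deepest bin in Ctrl, and 16.99%, 16.97%, 18.3%, 21.0% and 21.7% in cKO. Neat1 in Ctrl was 0.236%, 0.202%, 0.255%, 0.305% and 0.401%, and in cKO 0.205%, 0.208%, 0.256%, 0.228% and 0.274%. Its intervals in Ctrl and cKO overlapped in the 3 shallower bins and lay apart in the 2 deepest. Of the nuclei outside the fibers, 87 of 520 in Ctrl (16.7%) and 26 of 255 in cKO (10.2%) had under 10% Malat1, against 5 and 1 of all myonuclei.

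The classes outside the fibers lay closer to each other in Malat1 in Ctrl than in cKO. In Ctrl the share was 18.2% in nuclei like fibro-adipogenic progenitors (FAPs), the connective tissue cells of muscle, 19.3% in the endothelial and smooth muscle cluster, 17.7% in immune-like, 18.6% in satellite-like and 17.7% in adipocyte-like nuclei. In cKO these were 18.8%, 23.6%, 16.1%, 18.3% and 23.2%. The cKO satellite-like class held 11 nuclei and the adipocyte-like class 7 in Ctrl and 9 in cKO. The log2 difference was 0.29 in the endothelial and smooth muscle cluster and -0.14 in immune-like nuclei (-0.19 to -0.09), and the interval for satellite-like nuclei, -0.09 to 0.05, included 0. Neat1 was lower in cKO in all 5 classes, with the widest difference in immune-like nuclei, from 4361 CPM (384 UMIs in 36 nuclei) to 1756 (50 UMIs in 18 nuclei). After thinning to 500 UMIs, satellite-like nuclei went the other way, with a Neat1 UMI in 7 of 19 nuclei in Ctrl (36.8%) and 7 of 11 in cKO (63.6%), and the intervals of these shares overlapped. Immune-like nuclei then had a Neat1 UMI in 75% in Ctrl (57.8 to 87.9) and 61.1% in cKO (35.7 to 82.7), also with overlapping intervals. The skeletal myonucleus markers in immune-like nuclei had 43950 CPM in Ctrl and 31849 in cKO, and the part of fiber RNA was not tested.

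The share of nuclei with a Neat1 UMI was 99.7% of Ctrl and 98.0% of cKO myonuclei, and 84.4% and 76.5% outside the fibers, at median depths of 2141 and 1653 UMIs in myonuclei and 1368 and 1147 outside. After each nucleus was thinned to 500 UMIs, with no nucleus left out, it was 88.9% of Ctrl and 82.8% of cKO myonuclei and 63.5% of Ctrl and 59.2% of cKO nuclei outside the fibers. The order was the same at equal depth. No class here is known to lack Neat1 or Malat1, so the share that free RNA gives was not measured for them.

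In both libraries the level of Meg3 was highest in FAP-like and satellite-like nuclei, although in cKO myonuclei held 299 of its 499 UMIs. In Ctrl, FAP-like nuclei held 1019 Meg3 UMIs, 1538 CPM (1445 to 1635), and 61.7% of them had a UMI. Satellite-like nuclei held 45 UMIs, 1022 CPM (745 to 1367). Endothelial and smooth muscle nuclei had 81.4 CPM, immune-like nuclei 56.8, and the 7 adipocyte-like nuclei had 0 UMIs. Ctrl myonuclei had 149 UMIs, 19.3 CPM (16.4 to 22.7), and 3.49% of them had a UMI. Meg3 outside the fibers was thus 5.70 above myonuclei on the log2 scale in Ctrl and 3.43 above in cKO.

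In Ctrl myonuclei Meg3 stood, relative to FAP-like nuclei, where the FAP markers stood. Meg3 in Ctrl myonuclei was 1.26% of its level in FAP-like nuclei (1.05 to 1.49), and the 10 FAP markers together were at 1.24%, with single markers between 0.551% and 2.63%. In cKO, Meg3 in myonuclei was at 6.71% of its FAP-like level and the FAP markers at 0.889%. In Ctrl the interval of Meg3 thus held the value of the FAP markers, and in cKO it did not (5.53 to 8.16). The cKO value rested on a few nuclei with many Meg3 UMIs, described next. Without them the level was 12.6 CPM (10.0 to 15.6) against 665 in FAP-like nuclei. That was still a larger part than the FAP markers together had, with 36.0 against 4048 CPM, though within the range of single markers. Single FAP markers with enough UMIs, 9 in cKO, lay between 0.304% and 2.56%.

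In cKO myonuclei Meg3 had 299 UMIs, 44.6 CPM (39.7 to 49.99), 1.21 above Ctrl on the log2 scale (0.92 to 1.50) and above 97.2% of all genes. The share of myonuclei with a Meg3 UMI did not move with this level: it was 2.18% in cKO against 3.49% in Ctrl, and 0.891% against 0.788% after thinning each nucleus to 500 UMIs. The UMIs sat in a handful of nuclei: 4 cKO nuclei held 215 of the 299. These had 67, 64, 55 and 29 Meg3 UMIs, were all in cluster 1, and had 0 UMIs of the 10 FAP markers and 0 of the satellite cell markers. The nucleus with 67 was Myh7-dominant, with 5424 UMIs in all, 31.5% Malat1 and 207 Ttn UMIs. Those with 64 and 55 were called Myh1-dominant on only 3 and 5 myosin UMIs, and had 1794 and 1510 UMIs in all, and the last had no determined myosin.

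Without the myonuclei that had 10 or more Meg3 UMIs, the Meg3 level was 17.4 CPM in Ctrl and 12.6 in cKO, a log2 difference of -0.47 (-0.88 to -0.07). The sign of the difference thus turned on the 4 nuclei. Without cluster 1 it was -0.78. By myosin, Meg3 had 14 UMIs in Ctrl and 134 in cKO in the Myh1 class, 3 and 79 in the Myh7 class, 4 and 5 in Myh2, and 96 and 36 in Myh4. A single Ctrl myonucleus passed 10 UMIs, a Myh4-dominant one with 15. Nuclei could not be traced to an animal here, so from how many of the 3 pooled muscles the 4 came was not tested.

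**Figure D5:**
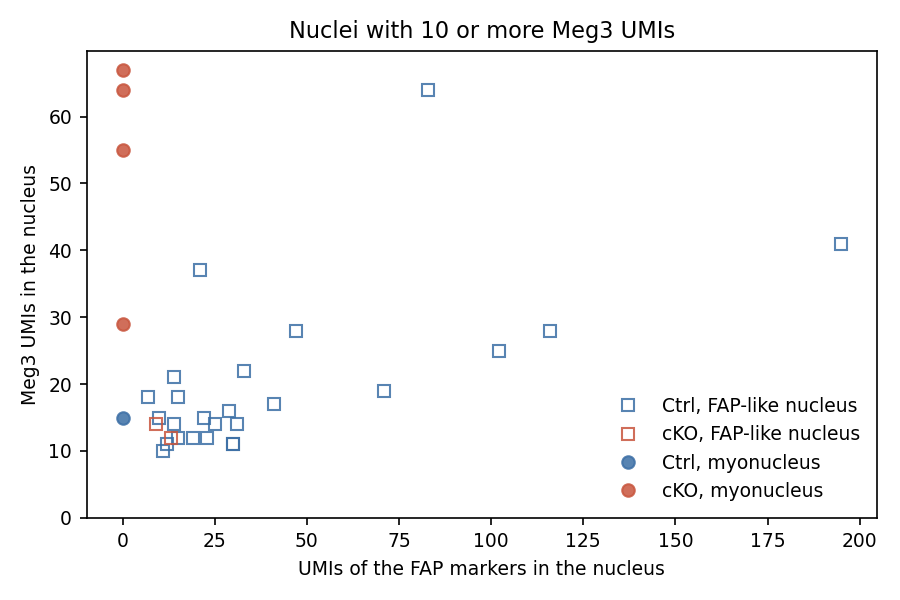
Meg3 UMIs (y axis) against the UMIs of the 10 FAP markers (x axis) in the 32 nuclei with 10 or more Meg3 UMIs, with filled circles for myonuclei, open squares for FAP-like nuclei, blue for Ctrl and red for cKO. The 4 cKO myonuclei (67, 64, 55 and 29 Meg3 UMIs) and the Ctrl myonucleus (15) stand at 0 FAP marker UMIs, and the 27 FAP-like nuclei have 7 to 195.

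In FAP-like nuclei, which held most of the Ctrl UMIs, Meg3 was lower in cKO. They had 1538 CPM in Ctrl and 665 in cKO (568 to 775), a log2 difference of -1.21 (-1.45 to -0.97), and 61.7% and 45.7% of them had a UMI, or 41.3% and 24.5% after thinning to 500 UMIs. The FAP markers together had 5452 CPM in these nuclei in Ctrl and 4048 in cKO, while the mitochondrial share was 1.58% and 3.01%. The part of either in the Meg3 difference was not tested. Meg3 was lower in cKO in both sets by Ttn share, with 2368 CPM in Ctrl and 961 in cKO in low-Ttn nuclei and 1054 and 448 in high-Ttn nuclei. In FAP-like nuclei 10 or more Meg3 UMIs were found in 25 Ctrl and 2 cKO nuclei. Satellite-like nuclei had 1022 CPM in Ctrl and 2433 in cKO (1603 to 3540), the highest level of any class in cKO, with 45 UMIs in 19 nuclei and 27 UMIs in 11 nuclei. After thinning to 500 UMIs, 47.4% of them in Ctrl and 54.5% in cKO had a UMI, with overlapping intervals, and the mean was 1.11 UMIs in Ctrl and 0.909 in cKO, so no direction is read from them. Over all nuclei outside the fibers, 2 of the 4 members tested were lower in cKO, Meg3 at -1.06 and Mirg at -1.64, and 0 were higher, where 15.7% of all genes were lower and 11.5% higher.

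Mirg shared the nuclei of Meg3. It had 33 UMIs outside the fibers in Ctrl, 30 of them in FAP-like nuclei, and 4 in cKO. Myonuclei had 1 UMI in Ctrl and 7 in cKO, 6 of these in 1 of the 4 Meg3-rich nuclei, the one with 55 Meg3 UMIs. Of the 30 Ctrl nuclei with Mirg, 25 also had Meg3 (83.3%, 65.3 to 94.4), against 9.47% of the nuclei without Mirg, and in cKO 5 of 5. Among Ctrl FAP-like nuclei, 24 of 26 with Mirg had Meg3 (92.3%), against 185 of 313 without (59.1%). The nuclei with Mirg were also deeper there, with a median of 2054.5 UMIs against 1279, and the part of depth was not tested. Gm26945, annotated inside the span of Rian, had 13 UMIs in Ctrl, 10 of them in FAP-like nuclei, and 0 in cKO. B830012L14Rik, between Rian and Mirg, had 14 and 6, of which 10 and 5 were in FAP-like nuclei. Each of these low counts lay mostly where Meg3 lay.

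Meg3, Rian and Mirg are thought to be transcribed as a long unit from the Meg3 promoter, which is shown for that reason. The 300 bases from 250 before to 50 after the RefSeq start (GRCm38.p6, chr12:109540746-109541045, plus strand) have the cAMP response motif TGACGTCA 57 bases and the TATA motif TATATAA 27 bases before the start, in capitals.
Meg3 promoter: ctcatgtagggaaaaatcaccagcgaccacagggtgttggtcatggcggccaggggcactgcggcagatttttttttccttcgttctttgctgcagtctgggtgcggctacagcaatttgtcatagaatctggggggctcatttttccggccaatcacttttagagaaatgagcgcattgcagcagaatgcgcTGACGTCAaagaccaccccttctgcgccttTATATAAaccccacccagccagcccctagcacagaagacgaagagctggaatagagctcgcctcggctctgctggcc
Both motifs were searched on both strands of 32851 promoters of the same length. TGACGTCA was in 1.79% of them, TATATAA in 3.24% and both in 10 promoters (0.0304%). The second Meg3 start and the promoters of Rian, Mirg and Malat1 had neither.

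The unit also carries microRNA hairpins, whose mature forms were not measured here. By RefSeq on GRCm38, 1 hairpin lies in an exon of Meg3 (Mir770), 3 in introns of Rian, and 14 in Mirg, 4 exonic and 10 intronic. H19 carries Mir675 in an exon, and Malat1 and Neat1 carry none. The mature forms are shown with the seed, bases 2 to 8, in capitals, for the 5p arms of the hairpins in exons of Meg3 and H19 and for the only pair on the list that shares a seed.
miR-770-5p, Meg3, chr12:109563710-109563731: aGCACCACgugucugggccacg
miR-675-5p, H19, chr7:142577112-142577133: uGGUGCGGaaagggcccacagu
miR-453, Mirg, chr12:109735669-109735692: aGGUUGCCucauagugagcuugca
miR-496a-5p, Mirg, chr12:109739132-109739152: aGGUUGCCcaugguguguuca

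The remaining genes of the Dlk1-Dio3 domain were hardly detected. Dlk1 and Dio3 had 0 UMIs in either library, and Rtl1 had 2. Wdr25, the only other gene of the domain with enough UMIs for a comparison, had 228 UMIs in Ctrl and 154 in cKO myonuclei, a log2 ratio of -0.36.

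H19 was rare in these nuclei, where RNA of the cytoplasm is largely missing, and higher in cKO myonuclei. It had 28 UMIs in Ctrl myonuclei, 3.63 CPM (2.42 to 5.25), and 61 in cKO, 9.11 CPM (6.97 to 11.7), a log2 difference of 1.33 (0.66 to 2.03). A UMI was found in 0.685% of Ctrl and 1.66% of cKO myonuclei. Outside the fibers H19 had 2 UMIs in Ctrl, 1.84 CPM (0.223 to 6.65), and 4 in cKO, 9.77 CPM (2.66 to 25.01), so a difference in level from myonuclei was not detectable at this depth. In contrast to Meg3, the UMIs were spread, with 54 cKO myonuclei holding the 61.

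Most H19 UMIs of cKO lay in cluster 1, which held 38 of the 61. Its level there was 12.3 CPM in Ctrl (5 UMIs) and 17.5 in cKO, a difference of 0.51 with an interval of -0.84 to 2.21. Cluster 0 had 1.97 CPM in Ctrl (6 UMIs) and 2.41 in cKO (4 UMIs). With the clusters weighted as in Ctrl, the difference over myonuclei was 0.55, with the myosin classes so weighted 0.68, and without cluster 1 it was 0.69. The Myh7 class had 16 UMIs in cKO, 26.3 CPM (15.0 to 42.7), and 0 in the 19 Ctrl nuclei. Within cKO, H19 was 2.94 higher on the log2 scale in Myh7-dominant than in Myh4-dominant nuclei (1.71 to 4.24). Slow-myosin nuclei and cluster 1 were more numerous in cKO, and their part in the H19 difference was not tested beyond these values.

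Of the other H19 neighbors, Igf2 had 4 UMIs in Ctrl and 1 in cKO myonuclei. Tnnt3 and Tnni2, the fast troponin genes next to H19, were at -0.23 and -0.57 in cKO over Ctrl myonuclei. Lsp1, a leukocyte gene of the same region, was lower at -1.51, with 147 and 45 UMIs, the 1 of 4 tested genes past 1.5-fold, where 13.1% of all genes were lower and 9.58% higher. In the imprinted gene network, which holds growth genes that are often expressed together, 1 of 8 tested genes was higher (Grb10, an insulin receptor adaptor, at 0.82) and 2 were lower (Slc38a4, an amino acid transporter, at -1.40, and Dcn, a FAP marker named after its values were seen, at -0.81). Gnas, a G protein subunit gene, was at 0.41. Outside the fibers over myonuclei in Ctrl, 7 of the 9 tested network genes were higher and 1 was lower, with a median of 1.95 against 0.39 over all genes. Against 41.8% higher and 14.3% lower over all genes, 6 of the 15 paraspeckle genes were higher there and 0 lower, of the speckle genes 2 of 17 and 1, of the other long noncoding RNAs 1 of 10 and 1, of the Malat1 and Neat1 neighbors 2 of 4 and 0, and of the H19-Igf2 domain 1 of 4 and 3, with a median of -0.87. In cKO, against 43.7% and 16%, the same counts were 8 and 0 of 15, 1 and 0 of 17, 1 and 2 of 10, 2 and 1 of 4, and 1 and 3 of 4, and 7 and 1 of 9 for the imprinted network.

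The profile of each member over the 22 sums of cluster and library with at least 20 nuclei was compared with those of 6313 genes. This left out the satellite-like and adipocyte-like nuclei of both libraries and the immune-like and Plekhh1-led nuclei of cKO. Malat1 was most like Dmd, the dystrophin gene (Pearson correlation of log2 CPM 0.840), Usp13 (0.823) and Camk2b (0.812). Neat1 was most like Ank (0.851), Bcl6 (0.847) and Kbtbd12 (0.846). Meg3 was most like Sh3d19 (0.919), Slit3 (0.899) and Magi2 (0.893), and Mirg like Myo9a (0.843), Sp3 (0.835) and Egfr (0.833). H19 had the weakest matches, Serf2 (0.733), Cwf19l2 (0.727) and Pkhd1 (0.725). Malat1 and Neat1 correlated at 0.345 and Meg3 and Mirg at 0.776. Mirg had 0 UMIs in most of the sums, and 30 of its 34 Ctrl UMIs lay in FAP-like nuclei, so its values rest mainly on that class. The points come from 2 libraries and differ in depth, so these values are descriptions.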

How the data were processed

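The deposited files held, for each barcode, the UMI counts of all genes without normalization, which the authors made with Cell Ranger 3.1.0 at default parameters against the mouse genome mm10. Which gene annotation was used, and whether reads in introns were counted, is not given in the sources used here. The kit version differs between the labels and the study's methods. No depth other than the UMI total was known, and each library had 1 deposited matrix from 3 pooled muscles.

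Barcodes with at least 100 genes, at least 500 UMIs and at most 10% mitochondrial UMIs were kept. Scrublet (scanpy 1.11.5, expected rate 0.06) called 0 doublets with its automatic threshold in both libraries and so had not worked, and the 8% of barcodes with the highest scores were removed instead (307 in Ctrl, 313 in cKO). The 6 listed genes were taken out before clustering with Seurat 5.3.0 and sctransform 0.4.2 in R 4.3.3 (SCTransform per library, integration on 3000 features, 25 components, resolution 0.3). A cluster was named from at least 3 markers at 2-fold or more, with at least 10 UMIs each. The class of a myonucleus was the gene of Myh7, Myh2, Myh1 and Myh4 with at least 60% of at least 3 of their UMIs.

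UMIs were summed per class and library. CPM had exact Poisson intervals, shares of nuclei exact Clopper-Pearson intervals and log2 ratios exact conditional intervals, at 95%. They cover counting error only, and with 1 library per group no test was made. The calculation of ratios and intervals was tested on simulated data. Background shares are over all genes with at least 20 UMIs in the nuclei compared. Where a count was 0, a limit of 3 UMIs was used. For shares at equal depth each nucleus was thinned to 500 UMIs.

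The members and the gene lists were chosen with earlier results of these data known. The text names the members, the 3 genes of each list with most UMIs, and the 3 genes most like each member by Pearson correlation of log2(CPM + 1), among genes with at least 200 UMIs. Some genes that this rule names are not reported here. Others are said to be named after their values were seen. The alternatives tried were another doublet, UMI and mitochondrial filter, another total, means over nuclei, clusters from all genes, other weights of depth bins and classes, classes set after thinning, another filter and fold for the background, and, chosen after seeing the data, the cluster weights of Ctrl, counting the mitochondrial cluster as myonuclei, and leaving out cluster 1, the nuclei rich in Meg3 or the nuclei outside the fibers with more Ttn. Gene positions are from GENCODE M21 and promoters and microRNAs from RefSeq, both on GRCm38. Promoters were found in RefSeq for 4 of the 6 listed genes (Meg3, Rian, Mirg and Malat1).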

Additional observations from a re-analysis of the deposited data

Results flagged for a closer look

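Malat1 and Meg3 each moved in opposite directions between cKO and Ctrl in different classes of nuclei, with counting intervals on opposite sides of 0. With 1 library per group, none of these differences between classes was tested. For Malat1, the log2 ratio of cKO over Ctrl was highest among the myosin classes and clusters in Myh7-dominant nuclei, at 0.56, where Ctrl held 19 nuclei, and it was lowest in immune-like nuclei, at -0.14, with 36 nuclei in Ctrl and 18 in cKO. For Meg3 it was highest in Myh1-dominant nuclei, at 3.103, where 14 UMIs in Ctrl stood against 134 in cKO and nuclei with 64 and 55 UMIs, whose class rests on 3 and 5 myosin UMIs, held most of the latter. It was lowest in the mitochondrial cluster, at -3.05, with 32 UMIs in Ctrl and 3 in cKO. The FAP markers in that cluster went from 687 to 66.4 CPM, and their part in the Meg3 difference was not tested.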

How the results depend on the processing

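No paired analysis was possible because each group had 1 library and the results come from no test, and for the same reason no library could be left out. Rian had no value under any setting. Of the 123 recomputed values for the ratios over myonuclei and outside the fibers, 69 stayed within the counting interval, 51 moved out of it and 3 went to the other side of a ratio whose interval lay apart from 0. The last were all of Meg3 in cKO over Ctrl myonuclei (1.21), which was -0.21 with the clusters weighted as in Ctrl, -0.78 without cluster 1 and -0.47 without the nuclei with 10 or more Meg3 UMIs, and 0.91 with doublets kept and 0.61 with the myosin classes weighted as in Ctrl. These settings on clusters and nuclei, and the one on Ttn, were chosen after seeing the data. The ratio of Malat1 in cKO over Ctrl myonuclei (0.24) was 0.23 with doublets kept, 0.25 at a minimum of 1000 UMIs, 0.24 with the mitochondrial cluster added, 0.34 on a total without Malat1 and mitochondrial genes, 0.18 as a mean over nuclei, 0.14 with equal depth bins, 0.18 and 0.13 with the myosin classes or clusters of Ctrl, and 0.11 without cluster 1. That of Neat1 (-0.32) was -0.22 on the other total, -0.29 as a mean over nuclei, -0.30 and -0.29 with the classes or clusters of Ctrl, and -0.27 without cluster 1. That of H19 (1.33) was 0.55 with the clusters of Ctrl.

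Outside the fibers over myonuclei, the ratios of Malat1 in Ctrl and cKO were -0.42 and -0.39 with doublets kept, -0.37 and -0.44 at 1000 UMIs, -0.65 and -0.83 on the other total, -0.73 and -0.75 as a mean over nuclei, -0.46 and -0.45 with clusters from all genes, -0.50 and -0.55 at 5% mitochondrial UMIs, and -1.04 and -1.05 in low-Ttn nuclei. Those of Neat1 were, in the same order, -0.34 and -0.43, -0.32 and -0.51, -0.69 and -0.90, -0.88 and -0.90, -0.47 and -0.39, then -0.59 in cKO at 5%, and -1.47 and -1.66. Those of Meg3 were 5.06 and 3.12 with doublets kept, 6.45 and 4.06 in low-Ttn nuclei, and in cKO 2.92 at 1000 UMIs, 3.83 as a mean over nuclei and 2.93 with clusters from all genes. For H19, whose intervals included 0, the ratio in Ctrl (-0.98) ranged up to 0.61 and that in cKO (0.10) down to -0.88, so it had no fixed sign. The cause of these moves was not tested.

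Of all genes, 1093 were higher and 1497 lower in cKO myonuclei, 704 and 955 with at least 50 UMIs, and 468 and 560 at a fold of 2. With myosin classes set after thinning to 500 UMIs, the Malat1 share was 31.6% in Myh7-dominant cKO nuclei, 24.9% in Ctrl and 31.4% in cKO with Myh2, and 26.6% and 29.3% with Myh1. Neat1 in Myh7-dominant Ctrl nuclei was then 0.603% on 7 nuclei, and Meg3 in those of cKO 26.4 CPM in place of 130 CPM. Depth limits what Mirg, H19 and the small classes can show.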
